A study of Arabidopsis thaliana with 5 samples.

Results

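JACKDAW (JKD) and BLUEJAY (BLJ) belong to the INDETERMINATE DOMAIN (IDD) family of C2H2 zinc finger proteins, which regulate transcription, and their DNA regions in Arabidopsis thaliana roots were mapped by chromatin immunoprecipitation and sequencing (ChIP-seq). The regions described here are the JKD-only regions inside genes: regions of the JKD list that share no base with any region of the BLJ list, lie on the 5 nuclear chromosomes and have their midpoint inside a protein-coding gene. There were 3187 such regions among the 21985 JKD regions, or 14.5% (95% Wilson interval 14.0 to 15.0%). They made up 18.5% of the 17208 JKD regions inside genes and 63.4% of the 5026 JKD-only regions, and they lay in 2983 genes, called host genes below. They were chosen by the region calls of both factors, so their absence from the BLJ list and their place inside genes are properties of the choice and not results.

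All plants were of the Columbia ecotype, and chromatin came from whole roots grown on plates without any added agent. Of the 5 libraries, 2 came from roots with a BLJ fusion to yellow fluorescent protein (BLJ-YFP), 2 from roots with a JKD fusion (JKD-YFP) and 1 from wild-type roots without a fusion. Every library was immunoprecipitated with the same anti-GFP antibody, which also binds the yellow variant of the protein. Per the labels, BLJ-YFP is present in ground tissue, JKD-YFP in ground tissue and in the stem cell organizer known as the quiescent centre, and the control has neither. The sources used here do not say which promoter drives each fusion, how many plants made a library or whether replicates came from separate cultures. A region seen in whole roots cannot be assigned to ground tissue or quiescent centre cells, and the extra cell type of JKD-YFP cannot be told apart from other differences between the factors. Per the sample sheets, replicate 1 of each factor and the control ran on a different flow cell from replicate 2 of each factor. The labels say instead that the libraries were pooled in 1 lane, and the sources used here do not settle which holds.

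IDD proteins bind DNA through their zinc fingers and act together with the GRAS proteins SHORT-ROOT and SCARECROW. In the root these factors pattern the ground tissue, which divides into cortex and endodermis around the vascular core. JKD is known for limiting the movement of SHORT-ROOT and for acting in the quiescent centre and in ground tissue identity, and BLJ is known for a partly overlapping role in ground tissue. ChIP-seq regions inside a gene body can lie over a promoter-proximal part, an intron, an exon or the gene's end, and these were not separated here because strand and exons were not used.

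Each region carries 2 density values from the authors, 1 per replicate in an order the sources used here do not give, called the first-listed and the second-listed value, and an irreproducible discovery rate (IDR), where a low value means that both replicates rank the region alike. Both density values were put on the log2 scale and averaged to a score, and the percentile of a region is its rank by score among all JKD regions. Read depth is unknown, and no wild-type regions were analysed here, so no density has a wild-type background beside it. The regions come from 1 list made from both replicates, so no region is a replicate of another and no test of a difference between groups of regions was made. Intervals cover counting error only.

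The JKD-only regions inside genes were weaker and narrower than the regions inside genes that both lists hold, called shared regions below. Their first-listed density had a median of 1.06, against 1.10 in the 14021 shared regions inside genes. Their second-listed density had a median of 1.41, against 1.49. Both density values were thus lower, although the groups overlapped widely: the middle 80% of JKD-only regions ran from 0.992 to 1.19 in the first-listed value, and that of shared regions from 1.01 to 1.24. By score the median JKD-only region stood at percentile 30.5 of the JKD list and the median shared region at percentile 52.0. The median width was 587 bp against 1078 bp, but width is tied to the choice, because a wide region is more likely to touch a region of the other list.

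Location in a gene went with a lower density among the JKD-only regions themselves. The 1839 JKD-only regions between genes had median densities of 1.08 and 1.48 at a median width of 564 bp, close to that inside genes. Their median percentile was 46.2. This order held on each of the 5 chromosomes, where both median densities inside genes were below those between genes. The same direction was seen in shared regions, with a median percentile of 65.2 between genes and 52.0 inside.

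On every chromosome the JKD-only regions inside genes had lower median densities in both values, and a smaller median width, than the shared regions inside genes. The median score of JKD-only minus shared regions was -0.066 (log2) over all chromosomes and between -0.071 and -0.058 on single chromosomes. Chromosome 1 held 829 of the regions, chromosome 5 held 776, chromosome 3 held 652, chromosome 2 held 470 and chromosome 4 held 460. The share of JKD regions inside genes that were JKD-only ran from 17.2% to 19.2% across chromosomes, so no chromosome stood apart.

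Within classes of like width, the density difference from the shared regions was smaller than over all regions. In regions of up to 400 bp the median score of JKD-only minus shared regions was 0.011, and from 401 to 600 bp it was -0.0016. From 601 to 800 bp it was -0.015, from 801 to 1000 bp -0.030, from 1001 to 1500 bp -0.031 and from 1501 to 3000 bp -0.038. By score the shared regions therefore had the higher median from 401 to 3000 bp, by less than the overall difference, and not in the narrowest class. Above 3000 bp the sign changed to 0.159, with only 8 JKD-only regions, of which 3 lay in wide blocks of cover described below. The single density values differed in sign. JKD-only minus shared, the first-listed median was lower in every class, at -0.0094 up to 400 bp and -0.016 above 3000 bp. The second-listed median was higher there, at 0.026 and 0.321, and also from 401 to 600 bp, at 0.011. The JKD-only share of JKD regions inside genes fell by class from 46.7% in the narrowest to 0.757% in the widest.

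**Figure D1:**
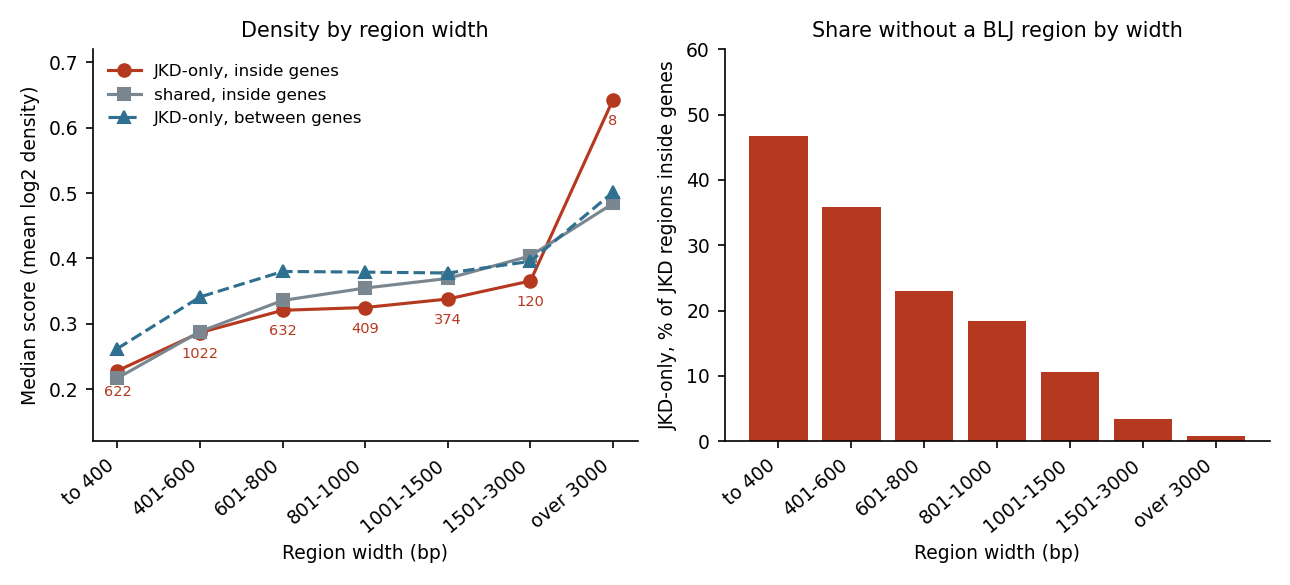
Left, median score (mean log2 of both density values) by region width for JKD-only regions inside genes, shared regions inside genes and JKD-only regions between genes, with the number of JKD-only regions inside genes printed under each of its points. Right, the share of JKD regions inside genes with no BLJ region, which falls from 46.7% to 0.757% with width, while the red and grey lines on the left stay within 0.04 of each other up to 3000 bp.

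Few of the regions were highly reproducible between the JKD replicates by the authors' measure. An IDR of 0.05 or less was reached by 247 of 3187 regions (7.75%, interval 6.87 to 8.73%), where 17.7% of all JKD regions reached it. With the BLJ list limited to regions at an IDR of 0.05 or less, 16070 JKD regions inside genes overlapped none, and the share among them was 15.3%. The shares were 18.0% in shared regions inside genes and 15.3% in JKD-only regions between genes. The median IDR was 0.181 against 0.136 in shared regions inside genes. The gap in shares differed by width. Up to 400 bp, 1.13% of JKD-only and 1.41% of shared regions inside genes reached an IDR of 0.05 or less. From 401 to 600 bp the order was reversed, at 6.75% and 5.86%. The JKD-only share was lower in every wider class. It was 9.65% against 12.2% from 601 to 800 bp, 10.96% against 19.1% from 1001 to 1500 bp and 37.5% against 38.5% above 3000 bp. IDR belongs to the same calls that chose the regions, so these shares are a description.

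Agreement of the 2 density values was also looser. Across the 3187 regions, which share both libraries and the authors' normalization, the Spearman correlation of first-listed and second-listed density was 0.262, and across the 14021 shared regions inside genes it was 0.409. The correlation of IDR was -0.470 for first-listed density and -0.230 for second-listed density, against -0.614 and -0.533 in shared regions. The JKD-only regions are narrower and span a smaller range of both densities, and the part of this in the correlations was not tested. The first-listed density was below 1 in 505 regions (15.8%), where 8.61% of all JKD regions were below 1, and the second-listed density was never below 1. None of these 505 regions had an IDR of 0.05 or less, and their median IDR was 0.308.

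A small set was high in both values. Of the JKD-only regions inside genes, 131 were in the top 10% of the JKD list by first-listed density, 138 by second-listed density and 33 by both (1.04%), against 3.32% by both in shared regions inside genes. All of these 33 regions had an IDR of 0.05 or less and 3 lay in wide blocks. IDR and density did not always rank regions alike: 42 of the 247 regions at an IDR of 0.05 or less had a score below the median of the JKD list, and 10 of the 123 regions at or above percentile 90 had an IDR above 0.3. Low IDR values also stood in narrow bands of density. Of the 117 regions with a first-listed density of 1.09 to 2 decimals, 31 had an IDR of 0.05 or less, but at 1.08 this held for 1 of 146 and at 1.10 for 0 of 115. The cause of these bands was not tested. Regions at AT3G06880 and CHR24, described below, have a first-listed density of 1.09.

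**Figure D2:**
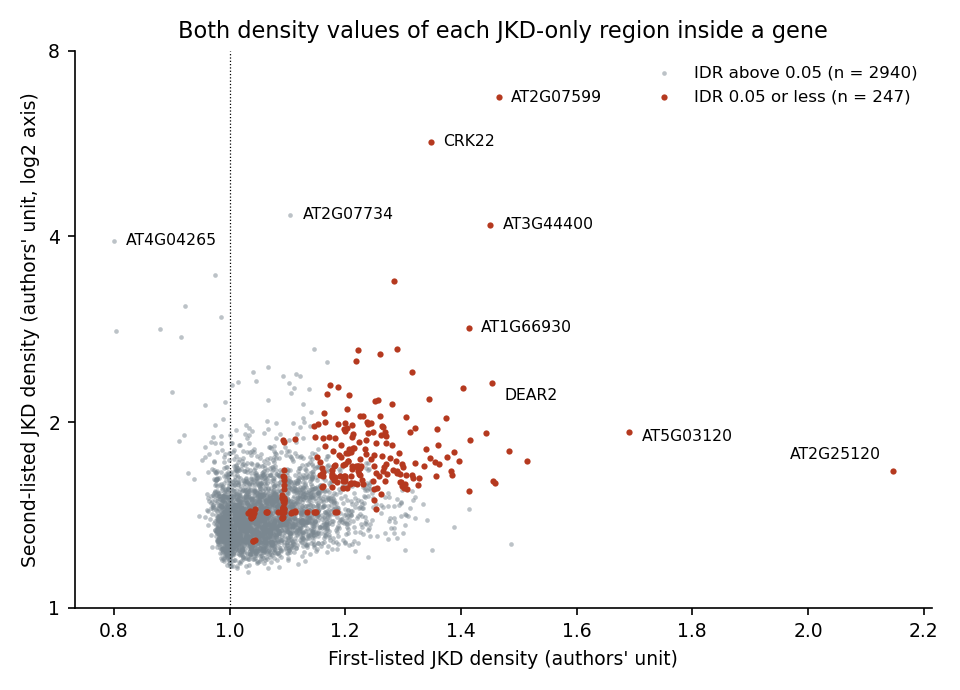
First-listed against second-listed JKD density for the 3187 JKD-only regions inside genes, with a log2 axis for the second-listed value and the dotted line at a first-listed density of 1. Red points are the 247 regions with an IDR of 0.05 or less, and AT4G04265, at 0.800 and 3.93, shows a region high in 1 value only.

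In the BLJ list the corresponding regions were also of low density. The 6218 BLJ-only regions inside genes had a median percentile of 27.3 in their own list, and the shared ones 57.5. Their median IDR was 0.160, against 0.157 in the shared ones, a smaller gap than in the JKD list. An IDR of 0.05 or less was reached by 9.25% of the BLJ-only regions inside genes and 7.48% of the shared ones. Densities of the 2 lists were not compared, because the normalization is not given.

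Many of the regions lay close to a BLJ region that they did not touch. The distance to the nearest BLJ region had a median of 978 bp, and the middle 80% lay between 250 and 3862 bp. A BLJ region lay nearer than 100 bp in 80 cases, nearer than 500 bp in 872 cases (27.4%) and nearer than 1000 bp in 1620 cases (50.8%). At the other end, 198 regions were 5000 bp or more away, and the greatest distance was 167313 bp. Regions far from the BLJ list were somewhat denser in the second-listed value, with a median of 1.48 at 5000 bp or more and 1.39 nearer than 250 bp. The first-listed medians were 1.06 and 1.05. The share at an IDR of 0.05 or less was 13.1% in the far group and 5.99% in the near group.

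The boundary of the choice is narrow at individual genes. Just inside it, a region in AT5G47790 (TAIR9, chr5:19352665-19353075, densities 1.02 and 1.37) lay 2 bp from a BLJ region, and 1 in UAP56b, a gene for an RNA helicase of messenger RNA export (chr5:3570293-3571097, 1.12 and 1.38), lay 3 bp away. A region in AT3G44430 (chr3:16069142-16069732, 1.14 and 1.45) was also 3 bp away, and regions in AT4G33890 and AT3G45400 were 7 bp away. Just outside it, a region in CLF, which encodes a Polycomb histone methyltransferase (chr2:9955867-9956154, 0.998 and 1.22), overlapped a BLJ region by 1 bp and counted as shared. Regions in CYL1, AT4G36430, AT5G57890 and RTFL10 overlapped by 2, 4, 6 and 8 bp. By score the 10 regions on both sides of the boundary stood at percentiles between 0.259 and 52.5 of the JKD list.

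**Figure D3:**
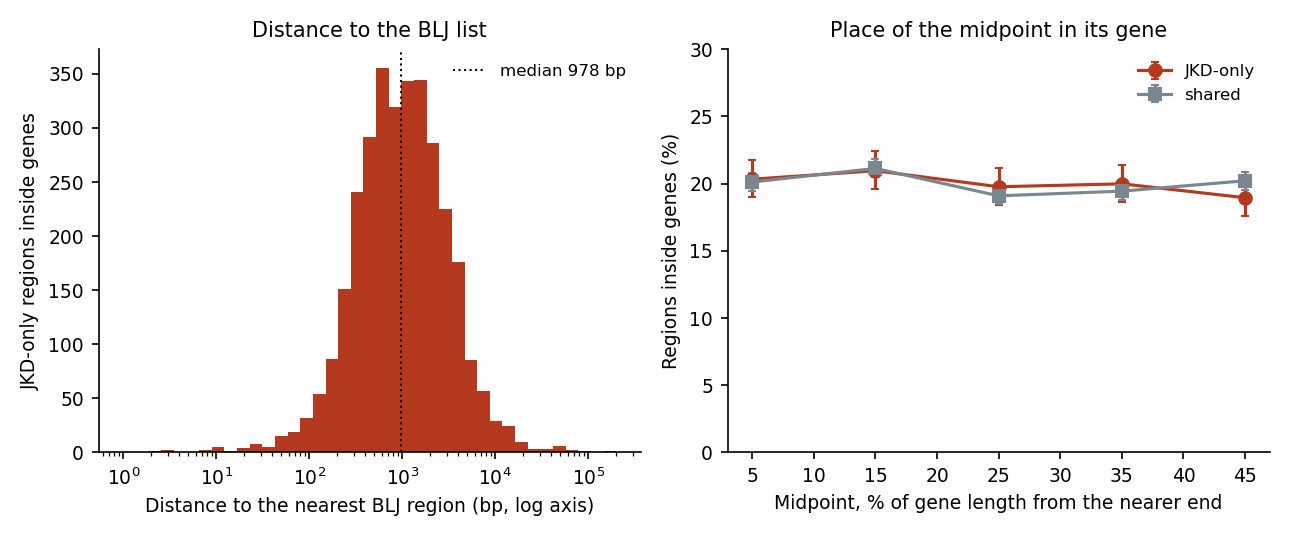
Left, the number of JKD-only regions inside genes by distance to the nearest BLJ region (log axis, median 978 bp). Right, where the midpoint lies in its gene, as a percentage of gene length from the nearer gene end, for JKD-only and shared regions with 95% Wilson intervals; both groups hold 19.0 to 21.1% of regions in each step.

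Inside their genes the midpoints were spread evenly. Counted from the nearer gene end, the 5 steps of 10% of gene length held 20.3%, 21.0%, 19.8%, 20.0% and 19.0% of the midpoints, and shared regions had 20.1%, 21.1%, 19.1%, 19.4% and 20.2%. The intervals overlapped at every step. The regions themselves were more contained: 70.9% lay wholly inside the host gene, against 49.5% of shared regions. Another 27.7% crossed 1 gene end and 44 regions (1.38%) spanned a whole gene, against 41.1% and 9.44% of shared regions. The median region covered 19.5% of its gene, which goes with its smaller width.

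Long genes held more of the regions. The host genes had a median length of 2835 bp, genes with a shared midpoint 2478 bp and all protein-coding genes 2078 bp. A host gene held 1 midpoint in 2760 cases, 2 in 211, 3 in 11 and 4 in 1, and genes with 2 midpoints had a median length of 3795 bp. Of all 27432 protein-coding genes 10.9% were hosts, but this share rose by length decile from 2.70% in the shortest to 24.3% in the longest. Per Mb of gene the JKD-only midpoints were nearly level, between 45.0 and 54.8 in every decile. Shared midpoints per Mb were not level, at 270 in the fourth decile and 167 in the longest.

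**Figure D4:**
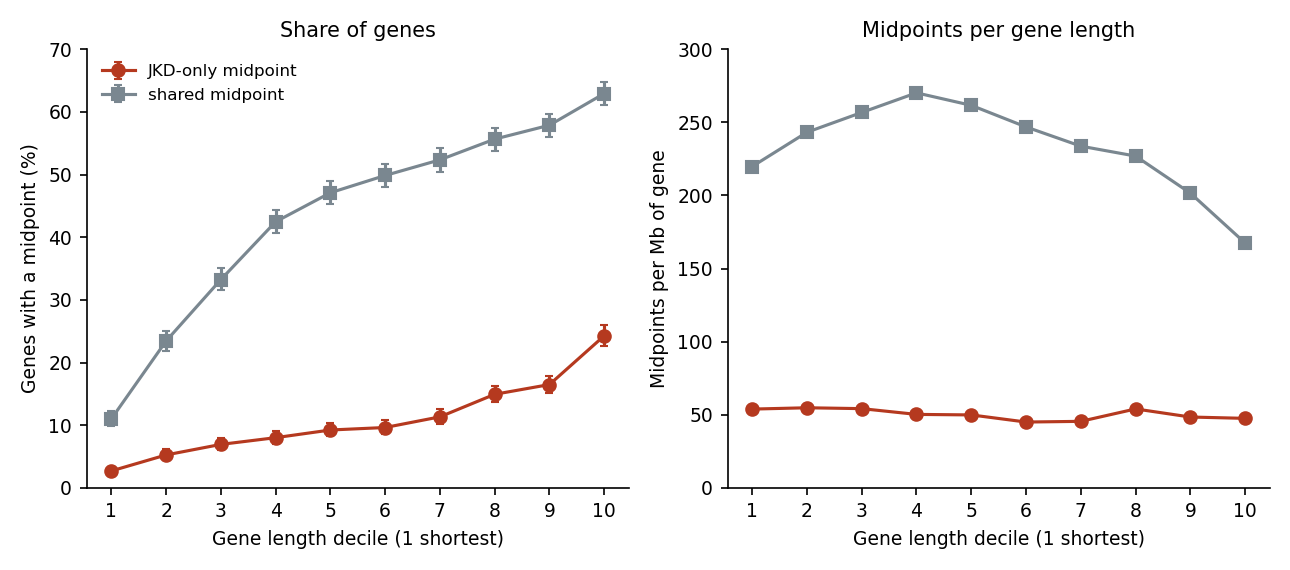
Left, the share of genes in each length decile that hold a JKD-only or a shared midpoint, with 95% Wilson intervals; the JKD-only share rises from 2.70% to 24.3%. Right, the number of midpoints per Mb of gene, which stays between 45.0 and 54.8 for JKD-only regions and falls from 270 to 167 between the fourth and the longest decile for shared regions.

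UBP13, which encodes a ubiquitin-specific protease and is 9840 bp long, was the gene with 4 JKD-only midpoints. Its regions on chromosome 3 had densities of 1.11 and 1.67 (3760406 to 3761219), 1.00 and 1.50 (3761361 to 3762403), 0.984 and 1.33 (3764850 to 3765376), and 1.07 and 1.25 (3767105 to 3767910). Another region with its midpoint in UBP13 (3769079 to 3771031, 1.08 and 1.50) was shared with a BLJ region, so both classes stood in 1 gene. AT3G06880 had 3 JKD-only regions, with densities of 1.35 and 1.75, 1.09 and 1.40, and 1.09 and 1.61. All 3 had an IDR below 0.05, at 0.00769, 0.0379 and 0.0353, and no shared midpoint lay in the gene. AT3G58770 also held 3, and had no BLJ region inside it or within 1000 bp of either end. The other genes named for 3 midpoints were AT1G58060 and ABH1, which encodes the large subunit of the nuclear cap-binding complex.

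A JKD-only region did not mean a gene without BLJ regions. Of the 2983 host genes, 875 (29.3%) also held the midpoint of a shared region. This was below the 43.6% of all protein-coding genes that did. It was also below the 55.7% in the length decile that holds the hosts' median length. Hosts were chosen for a JKD region without BLJ overlap, so part of these gaps may come from the choice. No BLJ region overlapped 1316 host genes (44.1%), where 29.0% of all protein-coding genes had none. With 1000 bp on either side included, 751 host genes (25.2%) had no BLJ region, where 19.2% of all genes had none. With 3000 bp included, 296 host genes (9.92%) had none, close to the 10.1% of all genes, and part of the gap to all genes at the shorter distances is fixed by the choice, since a host holds a region without BLJ overlap. The host genes of the 247 regions at an IDR of 0.05 or less had no BLJ region within 1000 bp in 86 of 246 cases (35.0%).

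The strongest region outside wide blocks lay in CRK22, a cysteine-rich receptor-like kinase gene. It spanned 450 bp on chromosome 4 (12182172 to 12182621), with a first-listed density of 1.35, a second-listed density of 5.70 and an IDR of 0.00262. The values differ widely between the replicates, both being in the upper part of the list, and the percentile was 99.97. A second JKD-only region lay within 1000 bp of the gene (12180615 to 12181571, 1.00 and 1.48). The nearest BLJ region was 2883 bp away and had densities of 2.23 and 1.24 in its own list.

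Next by score was AT3G44400 on chromosome 3 (16046982 to 16048116), with densities of 1.45 and 4.18 and an IDR of 0.000794, 173 bp from a BLJ region. AT1G66930 on chromosome 1 (24972129 to 24972849) had 1.41 and 2.84, with an IDR of 0.00142. AT2G25120 on chromosome 2 (10689545 to 10690456) had the highest first-listed value of all the regions, 2.15, with 1.67 in the second-listed value and an IDR of 0.0271. The first 2 of these regions were in the top 10% of the JKD list by both values, while AT2G25120 was so by the first-listed value and stood at percentile 78.8 by the second-listed value. AT4G05070, AT2G25050, AT3G30160, AT2G04070 and AT4G16900 followed with first-listed densities between 1.22 and 1.40 and second-listed densities between 2.27 and 2.63. AT4G04265 differed from them, with 0.800 and 3.93 and an IDR of 0.339, the authors' replicates not ranking it alike.

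DEAR2, which encodes an AP2/ERF factor with a repression motif, held a region on chromosome 5 (26808776 to 26810108) that crossed the lower gene end only. It was 1333 bp wide at a gene of 1241 bp and did not span the whole gene. Its densities were 1.45 and 2.31 and its IDR 0.00174. A shared region with lower densities of 1.05 and 1.45 lay beside it (26807244 to 26808670), and the nearest BLJ region ended 803 bp from the JKD-only region. Neighbouring JKD regions of unlike strength were thus present at this gene, the stronger being the JKD-only one.

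RHS6, a receptor-like kinase gene named as ROOT HAIR SPECIFIC, was the host of highest score that has a symbol and no BLJ region within 1000 bp. Its region on chromosome 1 (19270690 to 19271260) had densities of 1.22 and 2.51 and an IDR of 0.0132, and the nearest BLJ region was 13209 bp away. No other JKD region lay within 1000 bp of the gene. Other genes of high score without a BLJ region within 1000 bp were AT2G25120, AT4G05070, AT2G25050, AT3G30160, AT2G04070 and AT4G04265, besides 3 genes in a wide block on chromosome 2.

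Wide blocks, where JKD regions take up 90% or more of windows of 40000 bp, held 9 of the 3187 regions. The block on chromosome 5 (716660 to 773689) surrounds the JKD gene itself, and 2 of its regions, in AT5G03120 and AT5G03230, were JKD-only. The region in AT5G03120 (733536 to 735597) had densities of 1.69 and 1.93 and an IDR of 0.00219. The block on chromosome 1 (951059 to 1033124) held 1, in PSAT1. On chromosome 2 (3297860 to 3488452) the block held 6, including the widest of all, 6285 bp in AT2G07599 (3347399 to 3353683), with 1.47 and 6.73. That stretch lies near the centromere, where the nucleus holds a large copy of the mitochondrial genome, so reads there cannot be assigned to the nuclear or the mitochondrial copy with certainty. AT2G07698 (1.28 and 3.39) and AT2G07734 (1.10 and 4.34) lie in the same block.

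Of 10 IDD genes outside the list of ground tissue regulators, 4 were hosts (40%, interval 16.8 to 68.7%). Of all genes in the length decile that holds the list's median length, 14.9% were hosts. The shares given below for a length decile are of the same kind. At IDD7 the JKD and BLJ lists held separate neighbouring regions. The JKD-only region on chromosome 1 (20561476 to 20562778) had densities of 1.37 and 2.03 and an IDR of 0.00336, at percentile 97.7. A BLJ-only region with its midpoint in the same gene (20560400 to 20561229) ended 246 bp from it and stood at percentile 22.2 of the BLJ list. No shared region lay within 1000 bp of IDD7.

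The other IDD hosts each held a shared region as well. IDD4 had a JKD-only region on chromosome 2 (520067 to 520747, 1.04 and 1.77) and a shared one (518001 to 518772, 1.05 and 1.71) of like density. IDD5 had a JKD-only region (509283 to 510078, 1.01 and 1.58) beside a stronger shared one (507882 to 508869, 1.37 and 1.70). IDD11 had a JKD-only region on chromosome 3 (4544768 to 4545865, 1.01 and 1.80) beside a shared one (4546406 to 4548329, 1.07 and 1.62). In these 3 genes the IDR of the JKD-only region was 0.136, 0.223 and 0.266, so none was highly reproducible by that measure.

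Of 15 quiescent centre and stem cell genes, 4 were hosts (26.7%, interval 10.9 to 52.0%). The interval includes the 16.5% of genes of the same length decile that were hosts. PLT1, an AP2-domain factor of the root stem cell niche, held a pair on chromosome 3, with densities of 1.00 and 1.42 (7300860 to 7301385) and 1.23 and 1.52 (7302352 to 7302889). PLT2, its close relative, held a narrow region on chromosome 1 (18978252 to 18978503) of 0.987 and 1.36, and had no BLJ region within 1000 bp. AIL7, known also as PLT7, held a region on chromosome 5 (26185925 to 26186703) of 1.14 and 1.44 while a BLJ-only region lay in the same gene (26188621 to 26189524). AGL42, a MADS-box gene active in the quiescent centre, held 1.01 and 1.32. The IDR of these 5 regions lay between 0.0988 and 0.313, so none passed 0.05.

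Of 13 ground tissue regulators, IDD genes among them, HSFB4 was a host (7.69%, where 11.3% of genes of the length decile were hosts). Of 16 epidermis and root hair genes the host was RHD6, a bHLH factor that starts root hair formation (6.25%, length decile 9.23%). The RHD6 region on chromosome 1 (24796345 to 24796886) had densities of 1.24 and 1.71, an IDR of 0.0539 and percentile 88.2, with no BLJ region within 1000 bp of the gene and none nearer than 4393 bp to the region. HSFB4, known as SCHIZORIZA, had 1.03 and 1.48 at percentile 33.1, with the nearest BLJ region 22245 bp away. Of 18 endodermis barrier genes (length decile 9.23%), KCS2, a fatty acid elongase gene of suberin formation, was the host, with 0.995 and 1.36 beside a much denser shared region of 1.14 and 2.05. None of 4 root cap genes was a host (length decile 9.23%).

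Of 13 stele genes (length decile 16.5%), the cytokinin receptor gene WOL (1.06 and 1.37) and LHW (1.03 and 1.43), a bHLH factor of vascular founding cells, were hosts, and both also held a shared midpoint. The LHW region had an IDR of 0.0388 at a percentile of only 27.1. Of 17 auxin genes (length decile 16.5%), PIN4, an auxin efflux carrier gene of the root tip, was the host. Its region was wide, 2480 bp on chromosome 2 (181069 to 183548), with 1.05 and 1.51 and no BLJ region within 1000 bp of the gene. Of 18 gibberellin genes (length decile 9.63%), GA2 and GA3, which encode successive early enzymes of gibberellin synthesis, were hosts with 1.04 and 1.47, and 0.979 and 1.45. Of 21 cell cycle genes, 4 were hosts (19.0%, length decile 9.63%): the cyclin genes CYCD1;1 (1.00 and 1.46) and CYCB1;1 (1.03 and 1.29), the kinase gene WEE1 (1.07 and 1.75) and E2F3 (1.09 and 1.28).

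Over all 10 lists 20 of 145 genes (13.8%, interval 9.11 to 20.3%) were hosts. The interval includes the 11.3% of genes of the length decile that were hosts. The 21 regions of the listed hosts had a median percentile of 33.1, close to the 30.5 of all the JKD-only regions inside genes. IDD7 and LHW were the only ones with a region at an IDR of 0.05 or less. No BLJ region lay within 1000 bp of HSFB4, PLT2, RHD6 and PIN4, and 9 of the 20 hosts also held a shared midpoint. A shared midpoint was present in 80 of the 145 genes, where 43.6% of all protein-coding genes and 52.3% of genes of the length decile had 1.

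Gene families were taken from symbols and synonyms, so they miss members with other names and hold some genes of other kinds. Families of long genes had many hosts. Chromatin remodellers and helicases had 14 hosts of 45 genes (31.1%) and genes named for kinesins and myosins 14 of 46 (30.4%), 2 of which, AT1G08800 and AT1G70750, encode myosin binding proteins, where 24.3% of genes in their length decile were hosts. ABC transporters had 27 of 127 (21.3%) against the same 24.3%. The intervals of all 3 shares include the value of their length decile. KP1, a kinesin gene, had the region of highest score in this group at 1.27 and 1.54, and none of the 17 regions there had an IDR of 0.05 or less. CHR24, a chromatin remodeller gene, had 1.09 and 1.49 with an IDR of 0.0372.

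Several groups of surface receptor genes held JKD-only regions. Receptor-like proteins, which lack a kinase domain and serve in defence and development, had 13 hosts of 52 genes (25%, interval 15.2 to 38.2%), where 14.9% of genes of their length decile were hosts. RLP41 on chromosome 3 (9110833 to 9111471) had the densest of these regions, 1.13 and 2.14, followed by RLP16 (1.22 and 1.70, IDR 0.0291) and RLP53 (0.968 and 1.86, IDR 0.338). Cysteine-rich receptor-like kinases had 8 hosts of 44 (18.2%, interval 9.51 to 32.0%), led by CRK22. The interval includes the 14.9% of their length decile. EP1 (1.12 and 1.76) and CRK7 (1.13 and 1.75) lie in the same stretch of chromosome 4, at 12134898 to 12135998 and 12127600 to 12128078. Members of these families are close in sequence and often in tandem, so reads may be split among copies. Over all genes with a receptor kinase name the share was 22 of 153 (14.4%), near the 14.9% of their decile. These names include RACK1C_AT, which is no receptor kinase, and leave out RHS6. RPP5, a disease resistance gene in a cluster of like genes, held a region of 1.11 and 2.39 with an IDR of 0.130.

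Cellulose synthases and related enzymes had 11 hosts of 42 (26.2%, interval 15.3 to 41.1%), where 16.5% of genes of their length decile were hosts. CSLB06 on chromosome 4 (8743280 to 8744437) had 1.07 and 2.46, ATCSLA09, a glucomannan synthase gene, had 1.31 and 1.56 with an IDR of 0.0411, and CESA9 had 1.16 and 1.55. The 13 regions of the family had a median percentile of 38.8. Genes with a P450-type name were hosts in 25 of 250 cases (10%), near the 9.63% of their length decile, and 1 of these hosts, CYP59, is a cyclophilin gene. CYP710A4, a sterol desaturase gene, had 1.23 and 2.04 with an IDR of 0.0108, and CYP714A1, which inactivates gibberellins, had 1.26 and 1.76 with an IDR of 0.00813. CYP724A1, of the brassinosteroid pathway, had 1.33 and 1.63 with an IDR of 0.0155. ABCA11 and ABCA12, neighbouring transporter genes on chromosome 5, had 1.20 and 1.96 (24791298 to 24792547) and 1.29 and 1.73 (24795704 to 24796358), with an IDR of 0.0164 and 0.0220.

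Transcription factor families were mixed. Homeobox genes had 15 hosts of 95 (15.8%, interval 9.81 to 24.4%), where 11.3% of genes of their length decile were hosts. ATH1, a BELL-type homeobox gene, had 1.41 and 1.55 with an IDR of 0.0311, HB-7 had 1.29 and 1.65 with 0.0346, and FWA had 1.19 and 1.64 with 0.0504. MYB genes had 12 hosts of 132 (9.09%, length decile 9.23%), with MYB59 the densest at 1.24 and 1.99 (IDR 0.0219). WRKY genes had 7 of 71 (9.86%, length decile 9.63%), NAC genes 8 of 103 (7.77%, length decile 9.23%) and AGAMOUS-LIKE genes 6 of 98 (6.12%, length decile 6.93%), and of these only AGL16 (1.27 and 1.90, IDR 0.00981) had a region at an IDR of 0.05 or less.

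Genes carrying an AP2/ERF name had no host among 39, where 6.93% of genes of their length decile were hosts, and the interval of the share reaches 8.97%. The same list had 16 genes with a shared midpoint (41.0%), where 43.6% of all protein-coding genes and 33.2% of genes of the length decile had 1. The list follows names: DEAR2, PLT1, PLT2 and AIL7 are AP2-domain genes under other symbols and were hosts. F-box genes had 1 host of 31 (length decile 9.23%) and pentatricopeptide repeat genes none of 12 (length decile 9.63%). Ribosomal protein genes had 6 of 67 (8.96%, length decile 8.01%), all with a second-listed density of at most 1.35.

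**Figure D5:**
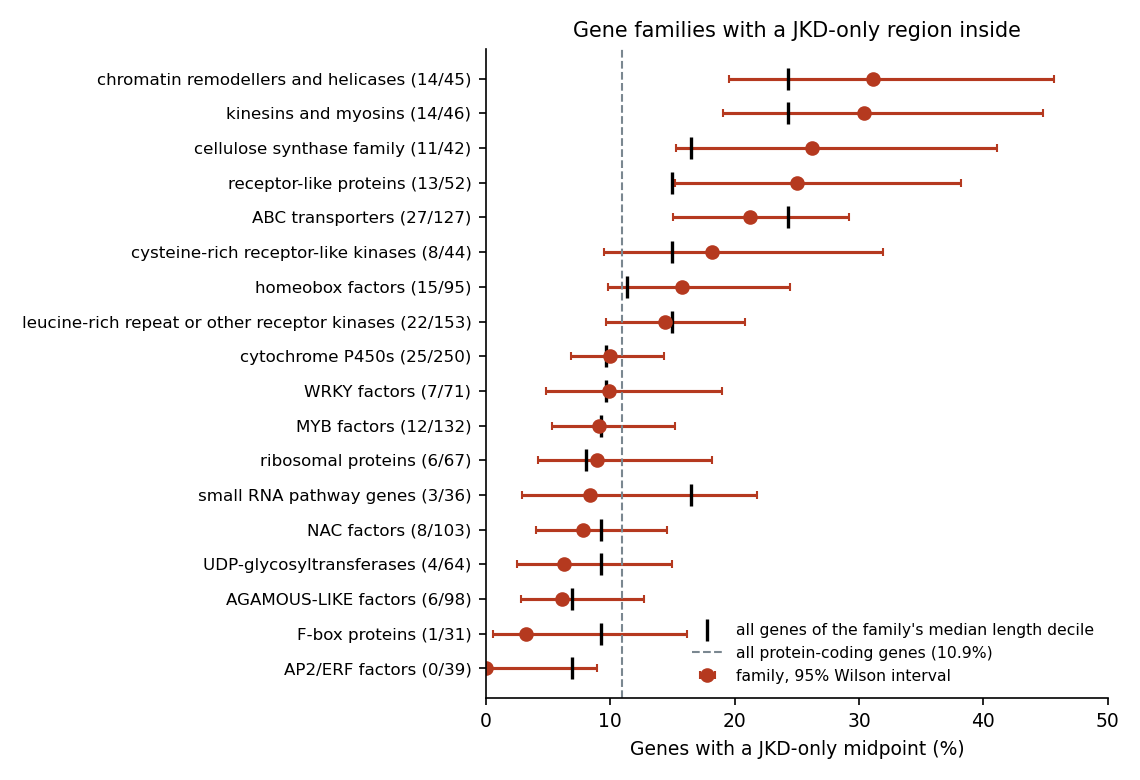
The share of genes that hold a JKD-only midpoint in each family of at least 30 genes, with hosts and family size in parentheses, 95% Wilson intervals, the share in all genes of the length decile that holds the family's median length (black ticks) and the 10.9% of all protein-coding genes (dashed line). Receptor-like proteins and cellulose synthases lie to the right of their ticks at 25% and 26.2%, and ABC transporters to the left at 21.3%.

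Along the chromosomes the JKD-only regions inside genes could have another JKD-only region next to them in the JKD list. This was so on at least 1 side for 1529 regions (48.0%), against 37.2% of the shared regions inside genes. Of all JKD regions 22.9% were JKD-only. That is a share of single regions and no background for shares that count neighbours on either side. The longest run held 9 JKD-only regions in a row over 140 kb of chromosome 5 (14615582 to 14756078), 4 of them inside genes, in ARF8, an auxin response factor gene, CHX24, AT5G37070 and AT5G37247. A run of 8 on chromosome 3 (16046982 to 16135639) began with the region in AT3G44400 and included FAR4, a fatty acid reductase gene.

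The regions seldom touched non-coding genes. A long non-coding RNA gene was overlapped by 2.67% of them, against 5.15% of shared regions inside genes and 9.08% of JKD-only regions between genes. Transfer RNA genes were overlapped by 0.439%, against 1.32% of shared regions inside genes. MicroRNA genes were overlapped by 0.188%, against 0.164%, with intervals that overlap. The regions are narrower than shared ones, and the part of width in these shares was not tested.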

How the data were processed

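ChIP DNA from 5 libraries was amplified linearly, made into Nextera libraries and read from a single end for 50 bp, per the labels' protocols. CASAVA and Bowtie were used with build TAIR9, per the submitters' processing notes. The sources used here give no peak caller, normalization, use of the control or versions. The authors deposited 1 region table per factor, called on both replicates. Per the file headers it holds coordinates, density values and an IDR, which was treated as a q-value. All 3 were used as deposited, and the authors' density was compared only within a list.

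Genes came from an NCBI table of assembly TAIR10.1, without strand, exons or sequence. Cover by JKD regions rose most steeply at gene edges at offsets of -100 to 100 bp on all 5 chromosomes, so the TAIR9 regions and this table match. Regions counted as shared from 1 bp of overlap with the other list. Midpoints were compared with protein-coding genes, and gene length was cut into 10 deciles. Families were found by patterns in symbols and synonyms, since the table has no product names.

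Named genes were the hosts of highest score outside (12) and inside (5) wide blocks, of the 8 lowest IDR values, of most midpoints (5), of the 3 widest regions, the 10 of highest score with no BLJ region within 1000 bp, all hosts in the root lists, up to 3 per family, and 5 regions on either side of the overlap limit. The planned printing of promoters was not possible without sequence and strand. CRK22's neighbouring region, the genes of runs and the block genes AT5G03230 and PSAT1 were named after their values were seen. The regions and lists were chosen with earlier results of these data known. Interval code was tested on simulated data. Tables were computed in Python 3.11.15 with numpy 2.4.6 and pandas 2.3.3, intervals with scipy 1.17.1 and figures with matplotlib 3.10.9.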

Additional observations from a re-analysis of the deposited data

How the results depend on the processing

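The number of JKD-only regions inside genes, 3187, depended on the IDR limits. It was 247 with JKD regions limited to an IDR of 0.05 or less and 16070 with BLJ regions so limited. It lay between 2264 and 4104 under 4 further definitions (500 bp of distance, 50% of overlap, whole regions inside genes, blocks left out). The score difference from shared regions stayed negative throughout. It was -0.038 for whole regions inside genes and -0.031 for JKD regions at an IDR of 0.05 or less, and from single density values -0.080 to -0.058. The width difference of -491 bp became -383.5 (50% of overlap), -251.5 (whole regions), -730 (JKD limit) and -433.5 (BLJ limit). The share at an IDR of 0.05 or less was 6.63% (whole regions) and 15.3% (BLJ limit). Host genes with no BLJ region numbered 1316 inside the gene only and 296 with 3000 bp. The share of genes that were hosts was 7.97% (500 bp), 13.8% (50% of overlap), 7.80% (whole regions), 0.897% (JKD limit) and 48.1% (BLJ limit). The cause of these shifts was not tested, apart from fewer regions entering under a limit. No paired analysis was possible because no test was made and the order of the density values is not given. The share of midpoints in the first 25% of the gene was not run, since strand was not used here. Depth is unknown, so the precision of a single density is unknown too.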

Other observations

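Some of the P450 hosts act in hormone pathways, a grouping made after their values were seen and given without a share. Besides CYP714A1 and CYP724A1, the brassinosteroid synthesis genes CYP90D1 (densities 1.03 and 1.60, IDR 0.289) and BR6OX1 (1.10 and 1.46, IDR 0.192) held a JKD-only region. CYP88A3, a gibberellin synthesis gene, held 2 of them, with 1.03 and 1.68, and 0.997 and 1.30. CYP707A2, which breaks down abscisic acid, held 1.14 and 1.70 with an IDR of 0.0772. No BLJ region lay within 1000 bp of CYP724A1, BR6OX1 or CYP707A2. Among transporter hosts, ABCB19 (1.05 and 1.45), ABCB21 (1.12 and 1.34) and ABCG37 (1.07 and 1.31) move auxin or its precursors, and all 3 also held a shared midpoint. None of the regions with densities in this paragraph had an IDR of 0.05 or less.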
